A study of Homo sapiens with 8 samples.

Results

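Core components of the spliceosome were followed through their skipped exons in human breast cells with and without emetine. The set comprised 42 genes that encode proteins of the small nuclear ribonucleoproteins (snRNPs), U2AF, SF1, the SF3 subunits and PRPF proteins. An event is an exon together with its upstream and downstream neighbours, and it was taken as a member where the gene was on the list and the same event stood in the tables of both cell lines. By this rule there were 206 member events on 170 exons of 36 genes, out of 56675 events shared by the tables. SF3A2, SF3B4, SF3B5, U2AF1, SNRNP35 and PRPF31 had 0 shared events. Counted by complex, the Sm core held 29 exons of 8 genes, the U1 snRNP 24 exons of 4 genes, the U2 snRNP 41 exons of 7 genes and 3' splice site recognition 17 exons of 3 genes. The tri-snRNP and B complex held 45 exons of 10 genes, the Prp19 complex and step 2 held 12 exons of 3 genes, and the minor spliceosome 2 exons of SNRNP48.

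PolyA RNA was sequenced from the non-tumorigenic breast epithelial line MCF10A and from HMLE TWIST, an immortalised breast epithelial line that carries TWIST from an integrated retrovirus and overexpresses it. Each line received DMSO, the solvent, or 10 µM emetine for 24 hours, giving 4 groups of 2 libraries: MCF10A with DMSO, MCF10A with emetine, HMLE TWIST with DMSO and HMLE TWIST with emetine. The series describes the replicates as biological, and nothing further is said of how the cultures were kept apart. Emetine is a plant alkaloid known as an inhibitor of protein synthesis, and the study concerned compounds that regulate alternative splicing.

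The spliceosome removes introns in an ordered assembly. The U1 snRNP binds the 5' splice site, SF1 and U2AF mark the branch point and the 3' splice site, and the U2 snRNP with its SF3A and SF3B subunits then settles on the branch point. The tri-snRNP of U4, U6 and U5 completes the machine, the Prp19 complex joins as it is activated, and a ring of Sm proteins sits on the RNA of most snRNPs. A minor spliceosome with its own snRNPs removes a rare class of introns. Several genes of splicing factors are known to carry exons whose inclusion or skipping brings an early stop codon into the reading frame, and transcripts of that kind are known targets of nonsense-mediated decay, which acts on translated RNA.

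Among the exons called in a line were several whose inclusion or skipping brings such a stop codon, and the stretches that hold those stops are given here because the results below turn on them. Sequences are from GENCODE 29 transcripts, with positions on GRCh38, on the transcript strand, 5' to 3', and capitals mark the first stop codon in frame. For SNRNP70, SNRPB, SF3B3, SF3B1 and U2AF2 the sequence runs from the first base of the exon to the stop codon inside it.
SNRNP70, first 26 bases of the 60-nucleotide exon, chr19:49102114-49102139, plus strand: ccaccacgcagctggcttgcagcTGA
SNRPB, first 58 bases of the 124-nucleotide exon, chr20:2467258-2467315, minus strand: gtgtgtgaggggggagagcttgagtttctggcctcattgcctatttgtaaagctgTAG
SF3B3, first 11 bases of the 29-nucleotide exon, chr16:70550650-70550660, plus strand: gtggctggTGA
SF3B1, first 20 bases of the 56-nucleotide exon, chr2:197418932-197418951, minus strand: gcttctattctgctgctTGA
U2AF2, first 110 bases of the 120-nucleotide exon, chr19:55658862-55658971, plus strand: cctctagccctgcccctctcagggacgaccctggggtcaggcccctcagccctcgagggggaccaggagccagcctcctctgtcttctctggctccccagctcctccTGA

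In SNRNP48 the exon is only 8 nucleotides long (chr6:7599673-7599680, plus strand) and holds no stop codon itself. Its length is not a multiple of 3, and the stop lies in the exon that follows.
SNRNP48, the 8-nucleotide exon: taattggg
SNRNP48, the exon joined to the start of the next one: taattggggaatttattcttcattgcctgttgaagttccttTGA
In SNRPA1 and SF1 the relation is reversed: the exon belongs to the coding sequence, and its skipping shifts the frame. For SNRPA1 the joined form is shown from 20 bases before the junction to the stop codon, which starts 4 bases after the junction. For SF1 the stop starts at base 171 after the junction and is not shown.
SNRPA1, the 80-nucleotide exon, chr15:101286214-101286293, minus strand: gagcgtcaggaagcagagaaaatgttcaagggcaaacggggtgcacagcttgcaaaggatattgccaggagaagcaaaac
SNRPA1, the skipping form across its junction: tccagaaagtgaaactaaaatttTAA
SF1, the 76-nucleotide exon, chr11:64773430-64773505, minus strand: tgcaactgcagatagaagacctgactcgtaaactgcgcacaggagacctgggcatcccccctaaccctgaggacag

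The inclusion level of an exon is the share of its junction reads, corrected for the length each form offers, that come from the form with the exon, on a scale of 0 to 1. It is a share of the RNA present and does not tell how fast either form was made or degraded, nor whether all cells or some of them shifted. An event was tested where every library had at least 20 reads and the rarer form had at least 10 reads in all. It was called changed where the adjusted p of a quasi-binomial model (Benjamini-Hochberg over all events of the comparison) was under 0.05 and the level moved by at least 0.1. Junction reads summed over events ran from 78412292 to 91259363 per library, and the median member event had 1307 to 2212.5 reads per library. The spread between replicates exceeded counting error: a chi-square per event that averages 1 under sampling noise averaged 2.08 to 2.19 over all events. Among member events it was 2.53 and 2.02 under DMSO in MCF10A and HMLE TWIST, and 5.22 and 5.44 under emetine. Both lines are labelled epithelial, but CDH1 and ESRP1, epithelial markers, had at most 1563 and 1046 reads in an event in MCF10A and at most 7 and 9 in HMLE TWIST. Conversely FN1, a mesenchymal marker, had at most 303 in MCF10A and 61606 to 94246 in HMLE TWIST. Other mesenchymal markers were not low in MCF10A to that degree: VIM had 5912 to 28296 there and 95897 to 190386 in HMLE TWIST. SPARC had 260 to 1547 and 3862 to 29871. The HMLE TWIST table also held COL1A1, listed as a marker of cells that neither culture should hold, with 16163 to 56308 reads.

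Emetine changed a minority of the core spliceosome exons. Exons of SNRNP70, SNRPB, SF3B1 and SF3B3 that were at 0.0253 or less with DMSO reached 0.0923 to 0.567 with emetine, and a coding exon of SNRPA1 was skipped. In MCF10A 14 of 86 tested member events were called changed (16.3%), 11 higher and 3 lower, where 13.2% of all 25522 tested events were called, 8% higher and 5.18% lower. In HMLE TWIST 12 of 111 member events were called (10.8%), 10 higher and 2 lower, against a background of 14.3% of 30290 events, 6.26% higher and 8% lower. The share of member events that changed was thus near the background in both lines. With limma 9 member events were called in MCF10A and 12 in HMLE TWIST, where it called 7.88% and 9.94% of all events. The median absolute change of the tested members was 0.0124 in MCF10A and 0.00779 in HMLE TWIST, and over all tested events it was 0.0239 and 0.0255. Most member exons were included almost fully: 108 events in MCF10A and 87 in HMLE TWIST were deep enough but had under 10 reads of the rarer form, and in 107 and 84 of them the level under DMSO was above 0.9. A further 12 and 8 events had under 20 reads in a library.

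When each exon was represented by its deepest event, 13 of 82 tested exons changed in MCF10A and 11 of 97 in HMLE TWIST. In all, 73 exons were tested in both lines, and 9 exons of 7 genes were called in both, 8 higher and 1 lower. They lay in SNRNP70 (3 forms), SNRPB, SF3B1, SF3B3, SNRNP48, PUF60 and SNRPA1, and each moved the same way in both lines.

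**Figure D1:**
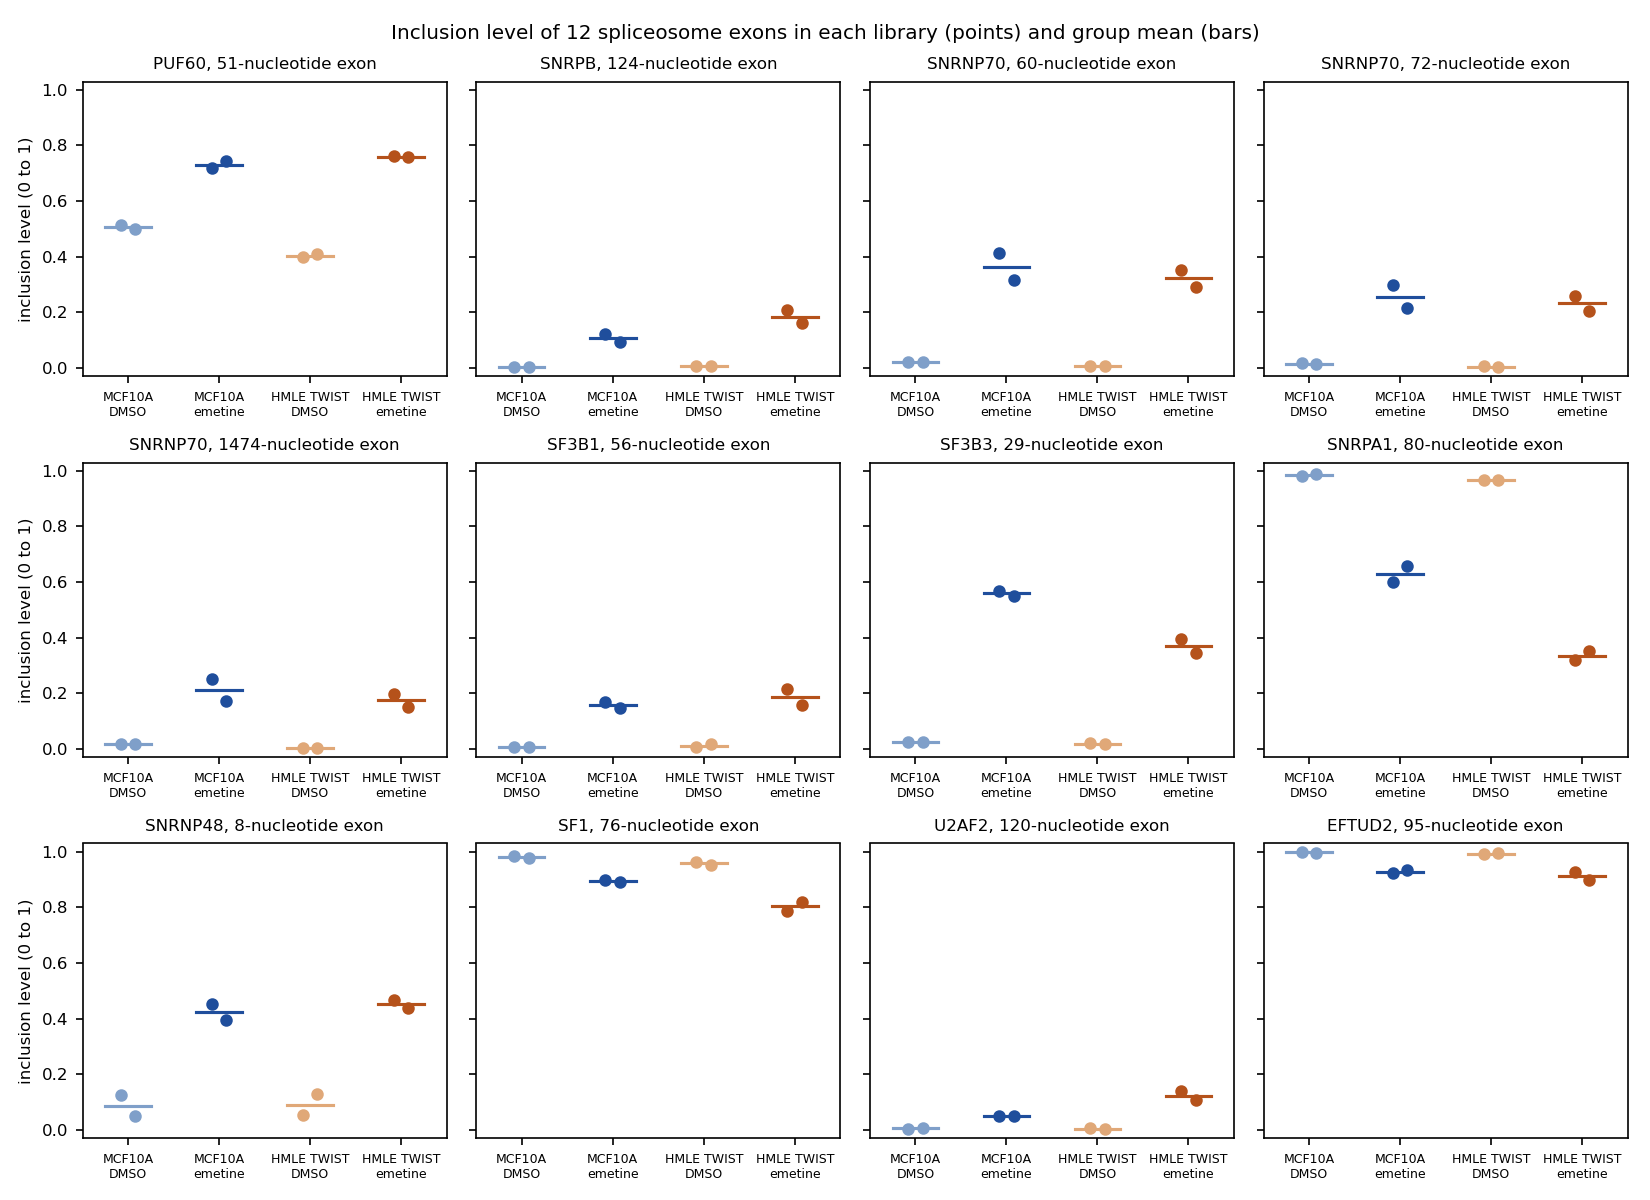
Inclusion level (0 to 1, vertical axis) of 12 spliceosome exons in the 4 groups (horizontal axis), with a point for each library and a bar at the mean of the 2 libraries. The exons of SNRNP70, SNRPB, SF3B1 and SF3B3 lie near 0 under DMSO and rise under emetine, while the mean of the SNRPA1 exon falls in MCF10A from 0.985 to 0.630 and in HMLE TWIST from 0.966 to 0.336.

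The U1 snRNP had the SNRNP70 exon as its main change. SNRNP70 (ENSG00000104852.14) encodes U1-70K, the protein that binds a stem-loop of U1 RNA. Its 60-nucleotide exon (GRCh37 chromosome 19, 49605371 to 49605430) lies between coding exons and is annotated in no coding transcript. The level was 0.0210 and 0.0199 in the MCF10A libraries with DMSO and 0.412 and 0.315 with emetine, and in HMLE TWIST it was 0.0072 and 0.0062 with DMSO and 0.353 and 0.292 with emetine. The groups did not overlap in either line. The mean moved from 0.0205 ± 0.000766 to 0.364 ± 0.0689 (SD, n = 2) in MCF10A (adjusted p = 3.92e-41 by the quasi-binomial model, 0.0145 by limma) and from 0.00668 ± 0.000682 to 0.322 ± 0.0433 in HMLE TWIST (5e-48 and 0.0113). In raw reads, inclusion went from 107 and 104 to 1434 and 1202 in MCF10A while skipping went from 3124 and 3205 to 1281 and 1639. The corresponding HMLE TWIST reads were 50 and 43 against 1899 and 1758 for inclusion, and 4343 and 4320 against 2181 and 2674 for skipping.

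Longer forms of the same exon, of 72 and 1474 nucleotides, share its first base, its stop codon and the same skipping reads, and so are not independent of it. Their levels rose by 0.241 and 0.194 in MCF10A and by 0.228 and 0.172 in HMLE TWIST. Under DMSO all 3 forms stood lower in HMLE TWIST than in MCF10A, the 60-nucleotide form by 0.0138 (adjusted p = 4.19e-06, quasi-binomial), too small a difference to be called. The 1474-nucleotide form passed the test between the lines (adjusted p = 0.0320 by the quasi-binomial model, 0.338 by limma). Its difference of level changes, -0.0221 in HMLE TWIST, was too small to be called. The model tests log odds, and the log2 odds shifted by 3.87 in MCF10A and 5.81 in HMLE TWIST. On that scale the response was thus larger in HMLE TWIST, opposite in sign to the difference of levels. Another SNRNP70 exon of 157 nucleotides, the deepest tested exon of the U1 group, which holds both untranslated and coding sequence, was at 0.996 to 1 in all 8 libraries. PRPF39, a U1-associated protein (ENSG00000185246.17), had a 100-nucleotide exon (chromosome 14, 45579097 to 45579196) whose inclusion brings a stop codon at base 85. The level was 0.611 and 0.455 with DMSO and 0.751 and 0.735 with emetine in MCF10A, a rise of 0.210 (adjusted p = 0.00242 by the quasi-binomial model, 0.122 by limma). In HMLE TWIST it was 0.352 and 0.395 with DMSO and 0.286 and 0.348 with emetine, a change of -0.06 that did not pass (0.488, quasi-binomial). The shallowest library held 53 reads of this exon, its MCF10A replicates with DMSO differed widely, and without MCF10A DMSO replicate 2 the change was 0.132 with an adjusted p of 0.184. SNRPA and SNRPC, which encode the U1 proteins A and C, had 4 and 2 tested exons in MCF10A and 0 called in either line. The widest change among those that passed the p threshold in them was 0.0101, in SNRPC.

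**Figure D2:**
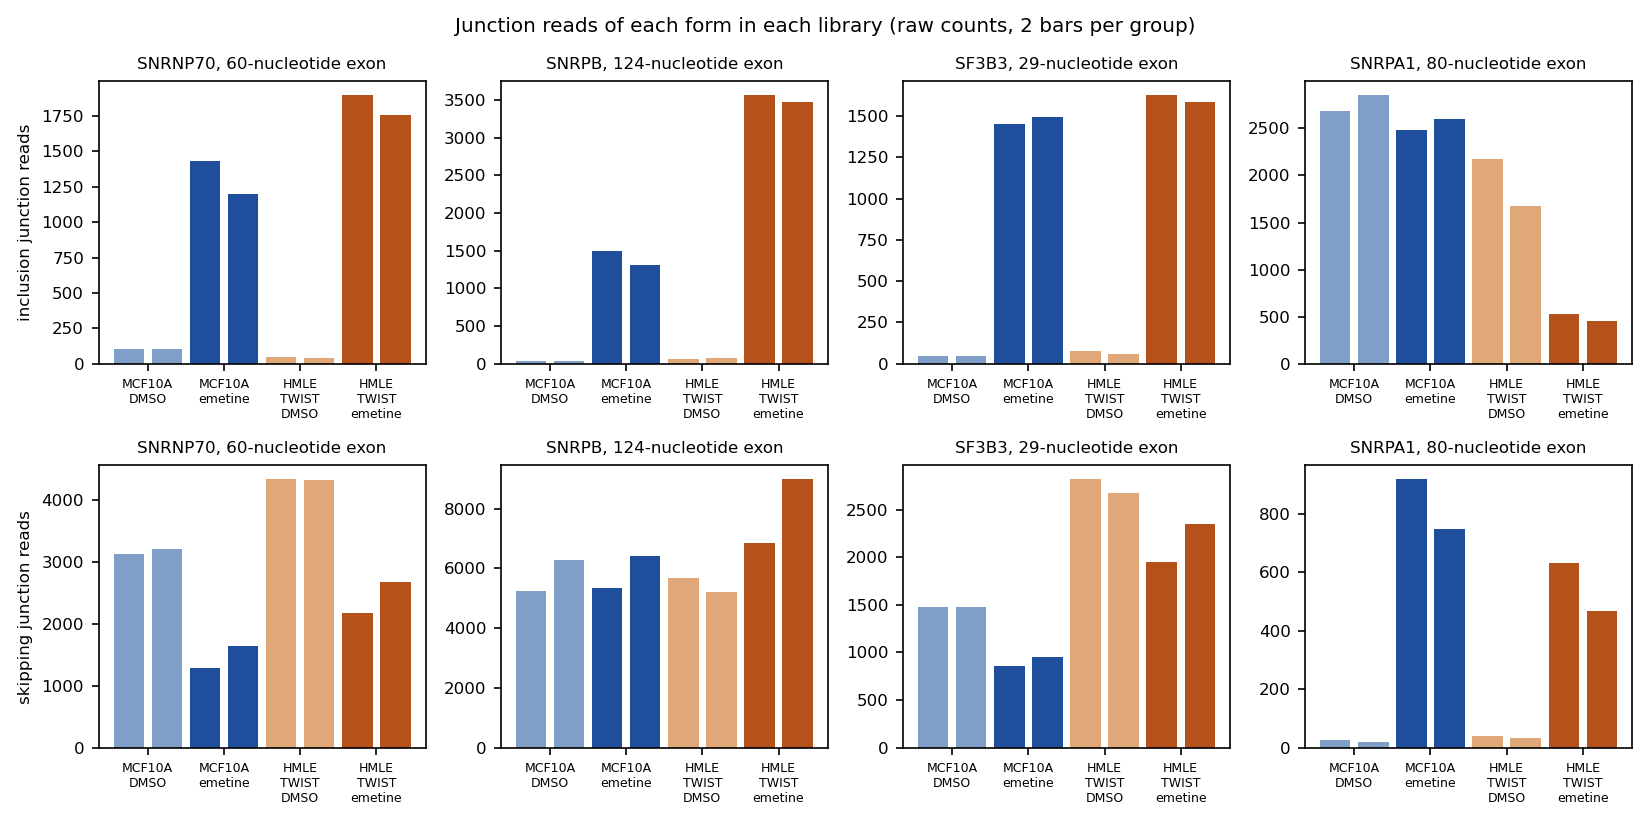
Raw junction reads of the inclusion form (upper row) and the skipping form (lower row) of 4 exons, with a bar for each of the 2 libraries per group and a separate vertical axis for each panel. In SNRPB the inclusion reads go from 38 and 37 to 1491 and 1308 in MCF10A while the skipping reads stay between 5236 and 6428.

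In MCF10A the highest rise and the deepest fall by exon were both in the U2 snRNP, and in HMLE TWIST the deepest fall was. SF3B3 (ENSG00000189091.12) encodes a large scaffold subunit of SF3B. Its 29-nucleotide exon (chromosome 16, 70584553 to 70584581), with a stop codon starting at base 9, stood at 0.0253 and 0.0246 with DMSO and at 0.567 and 0.551 with emetine in MCF10A. In HMLE TWIST the libraries were at 0.0214 and 0.0161 with DMSO and at 0.394 and 0.345 with emetine. The inclusion form thus held the majority in MCF10A with emetine, the means being 0.0250 ± 0.000459 and 0.559 ± 0.0117 (n = 2; adjusted p = 2.82e-44, quasi-binomial; 0.0145, limma). In HMLE TWIST the means were 0.0187 ± 0.00374 and 0.370 ± 0.0347 (3.79e-43 and 0.0113). The rise was 0.534 in MCF10A and 0.351 in HMLE TWIST, and this difference did not pass the test between lines (adjusted p = 0.508, quasi-binomial). The model works on log odds, which shifted by 5.62 and 4.94 on the log2 scale. A 157-nucleotide coding exon of the same gene, the deepest tested exon of the U2 group, was at 1 in every library with DMSO, and its lowest level with emetine was 0.996.

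SF3B1 (ENSG00000115524.15) encodes the SF3B subunit that lies around the branch point and is often mutated in blood cancers. Its 56-nucleotide exon (chromosome 2, 198283620 to 198283675) had levels of 0.0057 and 0.0087 with DMSO and 0.168 and 0.147 with emetine in MCF10A, and of 0.0062 and 0.0162 against 0.214 and 0.158 in HMLE TWIST. The rise was 0.150 in MCF10A and 0.175 in HMLE TWIST (adjusted p = 4.96e-23 and 4.5e-22, quasi-binomial; 0.0145 and 0.0147, limma). Of the 2 coding transcripts in which its frame could be read, 1 gave the early stop.

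SNRPA1 (ENSG00000131876.16) encodes the A-prime protein of the U2 snRNP. Its 80-nucleotide coding exon (chromosome 15, 101826419 to 101826498) was included at 0.983 and 0.988 with DMSO and at 0.601 and 0.659 with emetine in MCF10A. In HMLE TWIST it was at 0.967 and 0.966 with DMSO and at 0.319 and 0.353 with emetine. The skipping form thus held the larger share there after the correction for length, while the raw reads of the 2 forms were closer. Means fell by 0.356 in MCF10A (adjusted p = 1.54e-35, quasi-binomial; 0.0145, limma) and by 0.630 in HMLE TWIST (8.09e-40 and 0.0113). Skipping reads went from 26 and 20 to 920 and 748 in MCF10A and from 41 and 33 to 633 and 467 in HMLE TWIST. Inclusion reads were 2685 and 2856 against 2487 and 2597 in MCF10A, whereas in HMLE TWIST they were 2177 and 1672 with DMSO and 532 and 459 with emetine. The fall was larger by 0.275 in HMLE TWIST, but the difference did not pass the test between lines (adjusted p = 0.795, quasi-binomial), the log2 odds having shifted by -5.28 and -5.82. The frame was read in 2 coding transcripts, of which 1 gave the early stop on skipping. A 109-nucleotide SNRPA1 exon (chromosome 15, 101830019 to 101830127), whose inclusion leads to a stop in the next exon, went from 0.0039 and 0.0042 to 0.0351 and 0.0308 in MCF10A and from 0.0027 and 0.0032 to 0.0191 and 0.0174 in HMLE TWIST. Its adjusted p was 6.27e-12 and 9.77e-05 (quasi-binomial), and its size stayed below 0.1.

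Exons of SF3A3, which encodes a subunit of SF3A, moved little: 5 of its 9 exons were tested in MCF10A, 6 in HMLE TWIST, and 0 were called. The 68-nucleotide coding exon of SF3A3 (chromosome 1, 38444660 to 38444727), whose skipping brings an early stop, was at 1 and 0.999 with DMSO and 0.971 and 0.976 with emetine in MCF10A, and at 0.999 and 1 against 0.981 and 0.984 in HMLE TWIST. Separately, an event that pairs the 108-nucleotide SF3A3 exon (38444392 to 38444499) with a rare neighbour rose from 0.0213 and 0.0649 to 0.557 and 0.788 in HMLE TWIST (adjusted p = 1.3e-07, quasi-binomial), but its shallowest library there had 24 reads. In its deepest event the lowest level of that exon in any library was 0.998. For SF3A1, SF3B2 and SNRPB2 at most 1 exon was tested in a line, and 0 were called.

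The proteins that recognise the 3' splice site showed changes in both directions. PUF60 (ENSG00000179950.13), a relative of U2AF2 that binds U-rich tracts, had a 51-nucleotide coding exon (chromosome 8, 144902836 to 144902886) of intermediate use. The level was 0.512 and 0.50 with DMSO and 0.718 and 0.745 with emetine in MCF10A, and 0.399 and 0.409 against 0.763 and 0.757 in HMLE TWIST. Its length is a multiple of 3, and 6 of 10 coding transcripts placed it in the frame with no early stop in either form. The rise was 0.225 in MCF10A (adjusted p = 1.84e-20, quasi-binomial; 0.0687, limma) and 0.356 in HMLE TWIST (3.04e-34 and 0.0235). Of the 2 member events that passed the test between the lines, the other being the 1474-nucleotide SNRNP70 form, this was the one that also reached the size for a call: the change was larger by 0.131 in HMLE TWIST (adjusted p = 0.000461, quasi-binomial). With limma the adjusted p of this difference was 0.620, and limma called 0 of all 31825 events (0%), with 4058 of them and 14 of 131 member events at an unadjusted p under 0.05. In the quasi-binomial test 0.861% of the 31825 events were called, 0.258% with the more positive change in HMLE TWIST. PUF60 exons of 84 and 87 nucleotides share a boundary and their skipping reads, and went the other way by -0.06 and -0.04 in MCF10A and by -0.07 and -0.05 in HMLE TWIST, sizes under 0.1.

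SF1 (ENSG00000168066.20), the branch point binding protein, had a coding exon called lower in each line, a different one in each. Its 76-nucleotide exon (chromosome 11, 64540902 to 64540977) was at 0.965 and 0.954 with DMSO and at 0.786 and 0.821 with emetine in HMLE TWIST, a fall of 0.156 (adjusted p = 5.35e-19, quasi-binomial; 0.0215, limma). In MCF10A it was at 0.984 and 0.977 with DMSO and at 0.899 and 0.892 with emetine, a change of -0.0848 (4.24e-14) that stayed under 0.1. Skipping brought an early stop in 6 of the 8 coding transcripts read. The 205-nucleotide exon (chromosome 11, 64533423 to 64533627), with an early stop in neither form, was at 0.625 and 0.600 with DMSO and 0.444 and 0.448 with emetine in MCF10A, a fall of 0.167 (3.78e-08, quasi-binomial; 0.144, limma). In HMLE TWIST it stood at 0.427 and 0.469 with DMSO and at 0.439 and 0.378 with emetine, groups that overlapped. A shallower event of the same exon with another neighbour went the opposite way in MCF10A, from 0.416 and 0.252 to 0.738 and 0.815 (adjusted p = 2.5e-06, quasi-binomial), so the direction depends on which junctions are counted. The deepest SF1 exon, of 184 nucleotides, had a lowest level of 0.997. A 74-nucleotide SF1 exon with a stop on inclusion rose by 0.0331 in MCF10A and by 0.0361 in HMLE TWIST, sizes under 0.1. The adjusted p was 1.05e-09 and 7.92e-10 (quasi-binomial).

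U2AF2 (ENSG00000063244.12) encodes the large U2AF subunit, which binds the polypyrimidine tract. Its 120-nucleotide exon (chromosome 19, 56170228 to 56170347), described here after its values were seen, stood at 0.0066 and 0.0030 with DMSO and at 0.140 and 0.107 with emetine in HMLE TWIST, a rise of 0.119 (adjusted p = 9.55e-28, quasi-binomial; 0.0120, limma). In MCF10A it was at 0.0039 and 0.0079 with DMSO and at 0.0497 and 0.0494 with emetine, a change of 0.0436 (3.82e-12) below the size required. The difference between the lines did not pass (adjusted p = 0.444).

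Of the Sm core, SNRPB alone had a called exon: 1 of 18 tested exons in MCF10A and 1 of 16 in HMLE TWIST. These numbers are too small to be set apart from the 13.2% and 14.3% called over all events. SNRPB (ENSG00000125835.17) encodes the Sm proteins B and B', and its 124-nucleotide exon (chromosome 20, 2447838 to 2447961) is known as an exon through which SmB limits its own amount. With DMSO the level was 0.0036 and 0.0029 in MCF10A and 0.0060 and 0.0077 in HMLE TWIST, and with emetine it was 0.123 and 0.0923 in MCF10A and 0.207 and 0.162 in HMLE TWIST. The rise was 0.104 (adjusted p = 1.12e-38, quasi-binomial; 0.0145, limma) and 0.178 (3.79e-43 and 0.0113), at 5274 reads or more per library. In MCF10A it lies close to the size threshold, and without MCF10A emetine replicate 1 it was 0.0891. Skipping reads did not shrink as inclusion grew: they were 5236 and 6291 with DMSO and 5331 and 6428 with emetine in MCF10A, and 5669 and 5204 against 6837 and 8995 in HMLE TWIST, with no scaling for depth.

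SNRPN, the tissue-restricted relative of SNRPB from an imprinted locus, gave 11 exons, 9 of which were tested in each line with 0 called. Most of them begin upstream of the start codon, and several of these also hold coding sequence. Its 316-nucleotide exon (chromosome 15, 25219789 to 25220104) went from 0.0032 and 0.0038 to 0.0328 and 0.0344 in MCF10A and from 0.0029 and 0.0072 to 0.0334 and 0.0398 in HMLE TWIST, a change of about 0.03 in each. Reads there may also come from overlapping transcripts of the locus. In SNRPD2 the 115-nucleotide exon, with an early stop, was between 0.0068 and 0.0178 in all 8 libraries. SNRPG, another ring protein, had a 23-nucleotide coding exon at 0.905 and 0.917 with DMSO and 0.865 and 0.872 with emetine in HMLE TWIST (adjusted p = 5.94e-05, quasi-binomial; change -0.04). SNRPD1, SNRPD3 and SNRPE had 0 exons that passed the p threshold in either line, and SNRPF had 0 exons tested within a line.

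The tri-snRNP and the B complex had 45 exons, of which 2 of 17 tested were called in MCF10A (11.8%) and 0 of 24 in HMLE TWIST. Over all tested events 13.2% and 14.3% were called. PRPF3 (ENSG00000117360.12), a protein of the U4/U6 snRNP, had a 96-nucleotide exon (chromosome 1, 150300016 to 150300111) that was not found in GENCODE 29. It rose from 0.0860 and 0.0389 to 0.198 and 0.178 in MCF10A, by 0.126 (adjusted p = 8.36e-11, quasi-binomial; 0.0781, limma). In HMLE TWIST it went from 0.0400 and 0.0395 to 0.141 and 0.111, a change of 0.0865 (9.89e-08; 0.0429). The 204-nucleotide exon of PRPF4B (ENSG00000112739.16), a kinase of the B complex, changed by -0.155 in MCF10A at an adjusted p of 0.0243 (quasi-binomial; 0.0640, limma). Its level was 0.942 and 0.971 with DMSO and 0.744 and 0.859 with emetine, with 69 reads in the shallowest of these libraries and only 3 and 1 skipping reads with DMSO. In HMLE TWIST the exon was at 0.816 and 0.806 with DMSO and at 0.885 and 0.820 with emetine, a change of 0.0410 in the other direction that did not pass (adjusted p = 0.622, quasi-binomial), and the difference between the lines did not pass either (0.348). Leaving out MCF10A DMSO replicate 1, MCF10A DMSO replicate 2 or MCF10A emetine replicate 1 gave adjusted p-values of 0.0856, 0.116 and 0.265. EFTUD2, the GTPase of U5, had a 95-nucleotide coding exon (chromosome 17, 42930664 to 42930758) whose skipping brings an early stop. It was at 0.999 and 0.996 with DMSO and 0.925 and 0.933 with emetine in MCF10A, and at 0.992 and 0.995 against 0.927 and 0.898 in HMLE TWIST. These changes of -0.0685 and -0.0810 (adjusted p = 9.37e-11 and 7.94e-11, quasi-binomial) were under 0.1.

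PRPF8, the central protein of the catalytic core, had 3 exons tested in HMLE TWIST, and its deepest, of 180 nucleotides, had a lowest level of 0.978 in any library. SNRNP200, the helicase that unwinds U4 from U6, had 4 exons tested in HMLE TWIST, 3 of which passed the p threshold with lower inclusion at a median change of -0.00601 over the 4. In MCF10A 1 exon of SNRNP200 was tested, and it passed the p threshold with inclusion higher by 0.0039. PRPF6, which bridges U5 and U4/U6, and SNRNP40 of the U5 snRNP had 0 calls. PRPF31, whose mutations are known in retinal degeneration, is outside the shared set because its neighbours are recorded differently in the tables. Its 73-nucleotide coding exon (chromosome 19, 54631680 to 54631752) appeared in each table and skipping brings an early stop. Skipping reads went from 1 and 4 to 52 and 52 in MCF10A, where the level changed by -0.0496 (adjusted p = 1.77e-07, quasi-binomial), and from 3 and 0 to 177 and 133 in HMLE TWIST, where it fell by 0.112 (1.5e-17). Of all member events found in a single table, 6 of 54 in MCF10A and 20 of 153 in HMLE TWIST were tested, and this PRPF31 exon was the only call.

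In the minor spliceosome, SNRNP48 (ENSG00000168566.12), a protein of the U11/U12 particle that recognises its introns, changed in both lines. The 8-nucleotide exon (chromosome 6, 7599906 to 7599913) was at 0.125 and 0.0497 with DMSO and 0.452 and 0.394 with emetine in MCF10A, and at 0.0521 and 0.130 against 0.468 and 0.440 in HMLE TWIST. Every emetine library was above every DMSO library. The rise was 0.336 and 0.363 (adjusted p = 4.27e-08 and 6.09e-07, quasi-binomial; 0.0363 and 0.0265, limma), with 72 reads in the shallowest library. Within the Prp19 complex and step 2, 0 of 6 tested exons were called in MCF10A and 0 of 7 in HMLE TWIST, numbers too small to be set apart from the 13.2% and 14.3% called over all events. An exon of PRPF19, the ubiquitin ligase of the complex, with 106 nucleotides was the deepest of this group and had a lowest level of 0.993.

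**Figure D3:**
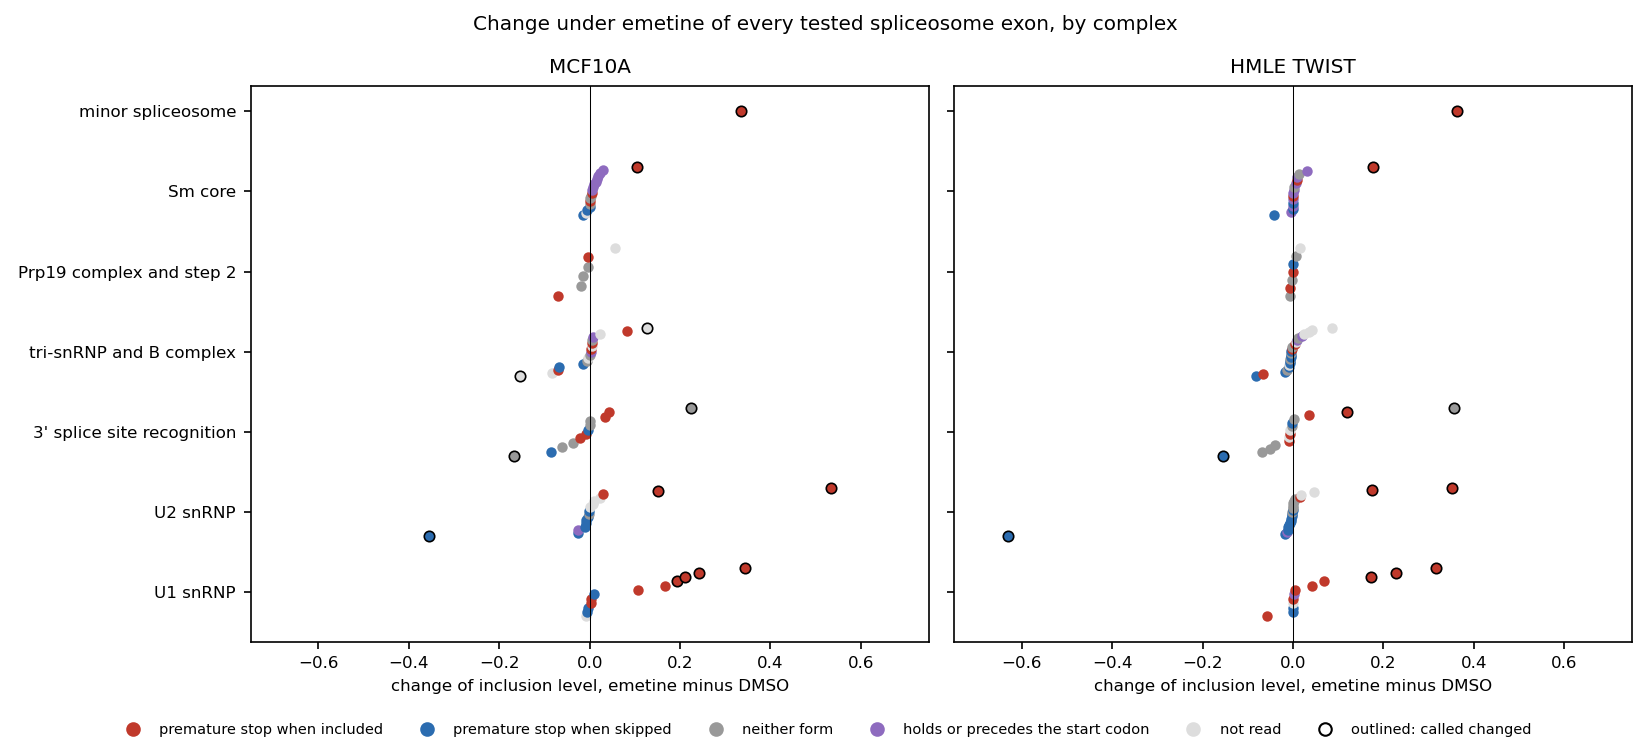
Change of inclusion level under emetine (horizontal axis, emetine minus DMSO) of every tested exon, with complexes on the vertical axis, MCF10A on the left and HMLE TWIST on the right. Colours give the reading frame class and a black outline marks a called exon. Most points lie close to 0, and the outlined points of the class with a stop on inclusion all lie to the right.

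The called exons were also grouped by their effect on the reading frame, which the choice of members did not use. Of the 13 exons called in MCF10A, 8 brought a premature stop when included, 1 when skipped and 2 in neither form, and for 2 the frame could not be read. Of the 11 in HMLE TWIST, 8 brought the stop when included, 2 when skipped and 1 in neither form. The frame was read on the annotated coding transcript with the longest coding sequence, and a stop was counted as premature where it lay more than 50 nucleotides before the last junction. Of 25 tested exons with a premature stop when included, 8 were called higher and 0 lower in MCF10A, where 8% of all tested events were called higher and 5.18% lower. Of 24 such exons in HMLE TWIST 8 were called higher and 0 lower, against 6.26% and 8% of all events. In both lines 3 of the 8 were the overlapping SNRNP70 forms. An exon below 0.1 with DMSO cannot be called lower, and the called exons of SNRNP70, SNRPB, SF3B1 and SF3B3 started there. The shares over all events were not matched for starting level. Over all events, 10765 of 25522 in MCF10A and 13493 of 30290 in HMLE TWIST had an unadjusted p under 0.05 (quasi-binomial), in either direction. Shares of all events at an adjusted p under 0.05 of any size, by direction, were not counted. At that threshold the exons with a stop on inclusion gave 16 higher and 2 lower in MCF10A, and 12 higher and 2 lower in HMLE TWIST. PRPF4B was among the exceptions: a 162-nucleotide exon with a stop at base 21 went from 0.108 and 0.0882 to 0.0256 and 0.0303 in MCF10A and from 0.110 and 0.0602 to 0.0220 and 0.0163 in HMLE TWIST.

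Among exons whose skipping brings the premature stop, those called were lower. Of 17 tested in MCF10A, 0 were called higher and 1 lower, and of 27 in HMLE TWIST, 0 higher and 2 lower (SNRPA1 in both, SF1 in HMLE TWIST). An exon above 0.9 with DMSO cannot be called higher, and the called exons of SNRPA1 and SF1 started there. Exons close to 1 have little room to rise by any size, so the starting level bears on these directions. At an adjusted p under 0.05 of any size, 1 was higher and 8 were lower in MCF10A, and 0 were higher and 16 lower in HMLE TWIST. Here too the shares over all events at this threshold were not counted. Where neither form had a premature stop, 16 exons in MCF10A gave 1 higher and 1 lower call and 22 in HMLE TWIST gave 1 higher and 0 lower. Of exons that hold the start codon or lie upstream of it, 0 of 11 and 0 of 12 were called. The median change was 0.0331 and 0.0117 (MCF10A and HMLE TWIST) for a stop on inclusion, and -0.00770 and -0.00518 for a stop on skipping. The median over all tested events was -0.000168 and -0.00315. Reading frames were read only for member exons, so whether exons of other genes divide in this way was not tested.

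**Figure D4:**
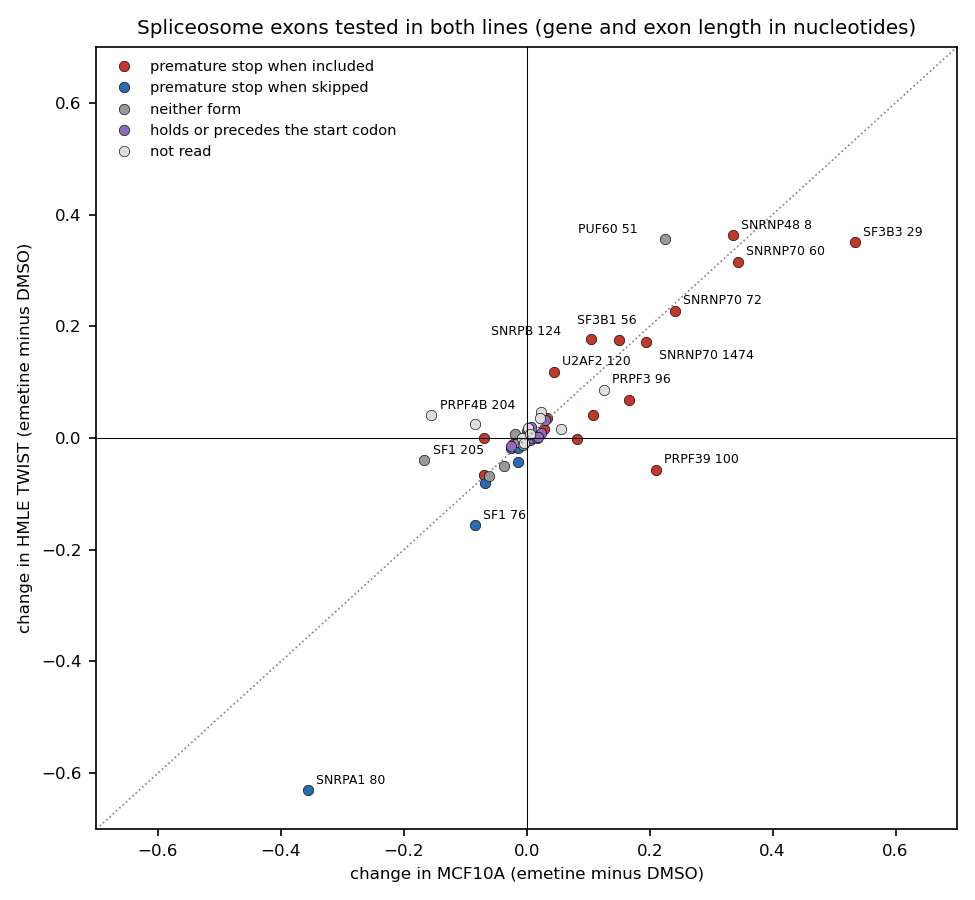
Change of inclusion level under emetine in MCF10A (horizontal axis) against that in HMLE TWIST (vertical axis) for the 73 exons tested in both lines, coloured by reading frame class, with the dotted line at equal change. Labels give gene and exon length for exons called in either line. SF3B3 lies below the line (0.534 and 0.351), PUF60 above it (0.225 and 0.356), and SNRPA1 is alone at the lower left (-0.356 and -0.630).

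Without emetine the lines differed in a share of member events near that of all events. Between HMLE TWIST and MCF10A under DMSO, 5 of 78 tested member events were called (6.41%), 1 higher and 4 lower in HMLE TWIST, where 5.68% of all 19301 events were called, 1.93% higher and 3.75% lower. Of any size, 17 of the 78 had an adjusted p under 0.05 (quasi-binomial), a threshold at which all events were not counted. At an unadjusted p under 0.05 (quasi-binomial) there were 23 of the 78 and 4834 of all 19301 events. The event that was higher was the shallow SF1 event named above, by 0.399 (adjusted p = 0.0112, quasi-binomial). PRPF18, a factor of the second catalytic step (ENSG00000165630.13), had the largest difference by exon: its 121-nucleotide exon (chromosome 10, 13633768 to 13633888) was at 0.307 and 0.307 in MCF10A and at 0.0755 and 0.104 in HMLE TWIST, a difference of -0.217 (adjusted p = 0.000294, quasi-binomial; 0.123, limma). With emetine it stood at 0.212 and 0.264 and at 0.0729 and 0.106. An early stop on inclusion was read in 1 of 3 coding transcripts. The SF1 exon of 205 nucleotides was lower in HMLE TWIST by 0.165 (1.47e-05; 0.283), the PUF60 exon of 51 nucleotides by 0.102 (9.82e-06; 0.456) and that of 84 nucleotides by 0.105 (0.000397; 0.383). With limma 0 member events were called between the lines (0.187% of all events), with 14 of 78 at an unadjusted p under 0.05. Lines and table runs cannot be told apart here, since each line had its own table.

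Other spliceosome genes, 71 in all and taken from a list of associated factors, LSM proteins, assembly factors and further subunits, gave similar counts. In MCF10A 17 of their 102 tested events were called (16.7%), 11 higher and 6 lower, and in HMLE TWIST 12 of 128 (9.38%), 7 higher and 5 lower. U2SURP, a U2-associated SR-related protein, had a 44-nucleotide exon that fell by 0.330 in MCF10A and by 0.499 in HMLE TWIST.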

How the data were processed

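Per the file headers, the deposited data were skipped-exon tables in rMATS format, a table for each line, in which the authors' junction read counts for inclusion and skipping are held as a pair of replicates. The deposited p-value and FDR are the authors' rMATS results, and the deposited score is their difference of inclusion levels. STAR 2.5.3a and GRCh37 are named in the submitters' processing notes. The version of rMATS is not given in the sources used here. Coordinates in the text are the tables' own unless GRCh38 is named. Of the 2 sample groups in a table, the one listed first was read as DMSO and the other as emetine, following the table's name, and the first listed value as replicate 1. The 4 deposited columns of inclusion levels were not used.

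Levels were recomputed from counts and the deposited effective lengths. Every event of a table entered a quasi-binomial logistic model (R 4.3.3), with the dispersion moderated by limma 3.58.1, floored at 1, and a two-sided moderated F test. The prior of the dispersion was estimated on events with at least 10 reads of the rarer form in each replicated group. This step was chosen after the dispersions, but not the calls, had been seen, and very small p-values rest largely on this shared dispersion, so limma on log2 odds (0.5 added to each count) stands beside them. The interaction used all 8 libraries. Alternatives were limma, other read minimums, the event's own dispersion, no length correction, a replicate block, the authors' FDR and leaving out each library.

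Exons were matched to GENCODE 29 by exon and intron lengths within the gene, with no coordinate conversion: 154 of 170 matched with both introns, 13 with 1 intron and 3 not at all. Exons named by rule were those called in both lines, the 3 largest called changes of each complex, those called between lines, and the deepest tested of each complex. Other exons given with values fall outside these rules and were picked with the results known. Among them are those of U2AF2, EFTUD2, SF3A3, SNRPN, SNRPD2 and SNRPG, and further exons of SNRPA1, PUF60 and PRPF4B. The replicate numbers share only a number: the deviations of same-numbered libraries correlated at 0.0177 in MCF10A and 0.00667 in HMLE TWIST. Members and lists were chosen with earlier results of these data known. Some results for the other spliceosome genes are not reported here.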

Additional observations from a re-analysis of the deposited data

Results flagged for a closer look

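The 51-nucleotide exon of PUF60 was the member event whose difference in response between the lines was called, passing both the interaction test and the size of 0.1: its inclusion rose by 0.225 in MCF10A and by 0.356 in HMLE TWIST, a difference of 0.131 (adjusted p = 0.000461, quasi-binomial model). In each line both emetine libraries lay above both DMSO libraries. The emetine levels of the lines were close, 0.731 ± 0.0195 and 0.760 ± 0.00379 (SD, n = 2), while the DMSO levels were 0.506 ± 0.00893 and 0.404 ± 0.00684. The difference was called in each fit that left out a library, and with limma it had an adjusted p of 0.620. A 1474-nucleotide SNRNP70 form also passed that test (adjusted p = 0.0320, quasi-binomial) with a difference of -0.0221, below that size. On log odds, the scale of the test, its response was larger in HMLE TWIST, so the 2 scales differ in sign.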

How the results depend on the processing

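Of the member events called in MCF10A (14), limma kept 9, and leaving out a library gave 12 to 16. In HMLE TWIST the 12 calls were 12 with limma and 12 to 13 with a library left out. The single difference of response between the lines became 0 with limma, which called 0 of all 31825 events (4058 at an unadjusted p under 0.05), and 1 to 3 with a library left out, the 3 being reached without HMLE TWIST emetine replicate 2. Those additional calls were the SF1 exon of 205 nucleotides (0.158, adjusted p = 0.00382) and the PRPF39 exon of 100 nucleotides (-0.298, 0.0458). With the replicate block it became 2, the second being the SF1 exon of 205 nucleotides (0.128, adjusted p = 0.0225, quasi-binomial). The block gave 14 in MCF10A, 12 in HMLE TWIST and 5 between the lines, so it changed no other count. The 5 differences between the lines under DMSO became 0 with limma and 3 to 4 with a library left out, with 3 without MCF10A DMSO replicate 1. The cause of these shifts was not tested. Over the named exons, 945 alternative values kept direction and side of the threshold, 23 lost the call, 5 gained it and 0 changed direction. With the authors' FDR in place of the model's, 14 and 12 member events were called. Exons with few reads of the rarer form could not be tested, so a small change in them was not detectable at this depth.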
